A study of Mus musculus with 6 samples.

Results

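The genes described here are those whose single symbol on the array's annotation is Gpr followed by a number, the names once given to G protein-coupled receptors before a ligand was known. They numbered 71 of the 19938 genes tested. Each was represented by 1 row of the deposited table, and for Gpr31b, the one gene with 2 rows, the row with the higher mean was used. The annotation had already moved the adhesion receptors, a class with long extracellular regions, to Adgr names, so 0 of the 71 was an adhesion receptor and the set held orphan receptors, receptors with a ligand since assigned, and 10 membrane proteins outside the classical receptor classes. One of the 71, Gpr137b-ps, is listed by RefSeq as a transcribed pseudogene.

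Scf-GFP+ cells were sorted from the bone marrow of young adult mice heterozygous for a knock-in of green fluorescent protein into the gene of stem cell factor (Kitl), and the comparison was whole bone marrow cells from young adult wild-type mice, both on a C57BL/6 background. Each group had 3 Affymetrix Mouse Gene 1.0 ST arrays, each from 5000 sorted cells whose RNA was amplified before labelling. The Scf-GFP+ cells were sorted in 2 passes and carry 1 modified Kitl allele, so that population, genotype and sorting differ together between the groups and cannot be told apart. The labels do not say whether each aliquot came from an animal of its own. The p-values then measure the spread between these samples, which may be wholly technical in whole marrow and partly so in Scf-GFP+ cells. Sex-linked genes, given below, differed between Scf-GFP+ replicates 1 and 2 and all other arrays, so sex also differs in part between the groups.

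G protein-coupled receptors cross the membrane several times and pass an outside signal to a heterotrimeric G protein, whose alpha subunit and beta-gamma pair act on enzymes such as the adenylyl cyclases. RGS proteins end the signal at the alpha subunit, and receptor kinases with arrestins end it at the receptor. In marrow, several receptors with Gpr names guide or activate leukocytes in response to acid, fatty acids or oxysterols. Many others still have no agreed ligand.

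The marker lists, chosen with earlier results of these data known, describe the labelled populations and do not test them. The stromal list did not hold Kitl, the gene that carries the green fluorescent protein. All 9 stromal markers tested, among them Lepr, Cxcl12 and Pdgfra, were called higher in Scf-GFP+ cells, with list means of 11.27 to 11.37 on the log2 scale in Scf-GFP+ cells and 6.18 to 6.20 in whole marrow. Neutrophil transcripts differed between the Scf-GFP+ arrays. The mean of 14 neutrophil markers was 9.39 on Scf-GFP+ replicate 1 and 5.69 and 5.79 on replicates 2 and 3, against 11.94 to 12.02 in whole marrow. Of the 14, 12 were called lower, and S100a8 and S100a9 were not. The list did not move as one on replicate 1. S100a8 stood at 12.44 there, against 6.01 and 6.49 on replicates 2 and 3. Elane stood at 5.92, against 5.73 and 5.52, and Mpo at 6.57, against 6.20 and 6.33. Xist, the RNA that silences an X chromosome in female cells, stood at 11.50 and 11.81 on Scf-GFP+ replicates 1 and 2 and at 5.04 on replicate 3, against 4.99 to 5.10 in whole marrow. The Y-linked gene Eif2s3y stood at 4.41 and 3.72 on Scf-GFP+ replicates 1 and 2 and at 8.23 on replicate 3, against 7.33 to 7.97 in whole marrow, so the 3 Scf-GFP+ aliquots did not all come from the same animal. Of other blood lineages, 8 of 8 erythroid markers, 3 of 9 T and NK cell markers and 1 of 5 megakaryocyte markers were called lower in Scf-GFP+ cells. Among all genes, 7.89% were called lower.

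Of the 71 genes, 4 were called higher in Scf-GFP+ cells (Gpr50, Gpr176, Gpr153 and Gpr182) and 8 lower (Gpr65, Gpr141, Gpr84, Gpr137b-ps, Gpr132, Gpr160, Gpr183 and Gpr12). A call required a Benjamini-Hochberg adjusted p below 0.05 in limma over all 19938 genes, and the groups had to differ 2-fold or more. These shares, 5.63% called higher and 11.3% called lower, stand beside 9.01% and 7.89% of all genes tested. All 3 Scf-GFP+ arrays lay above all 3 whole marrow arrays for 10 of the 71 genes and below them for 17, beside 19.0% and 26.4% of all genes. The median difference of the 71, Scf-GFP+ minus whole marrow, was -0.07 on the log2 scale, and that of all genes was -0.08. In RNA from sorted populations, fewer cells that carry a transcript and less of it in each cell cannot be told apart.

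**Figure D1:**
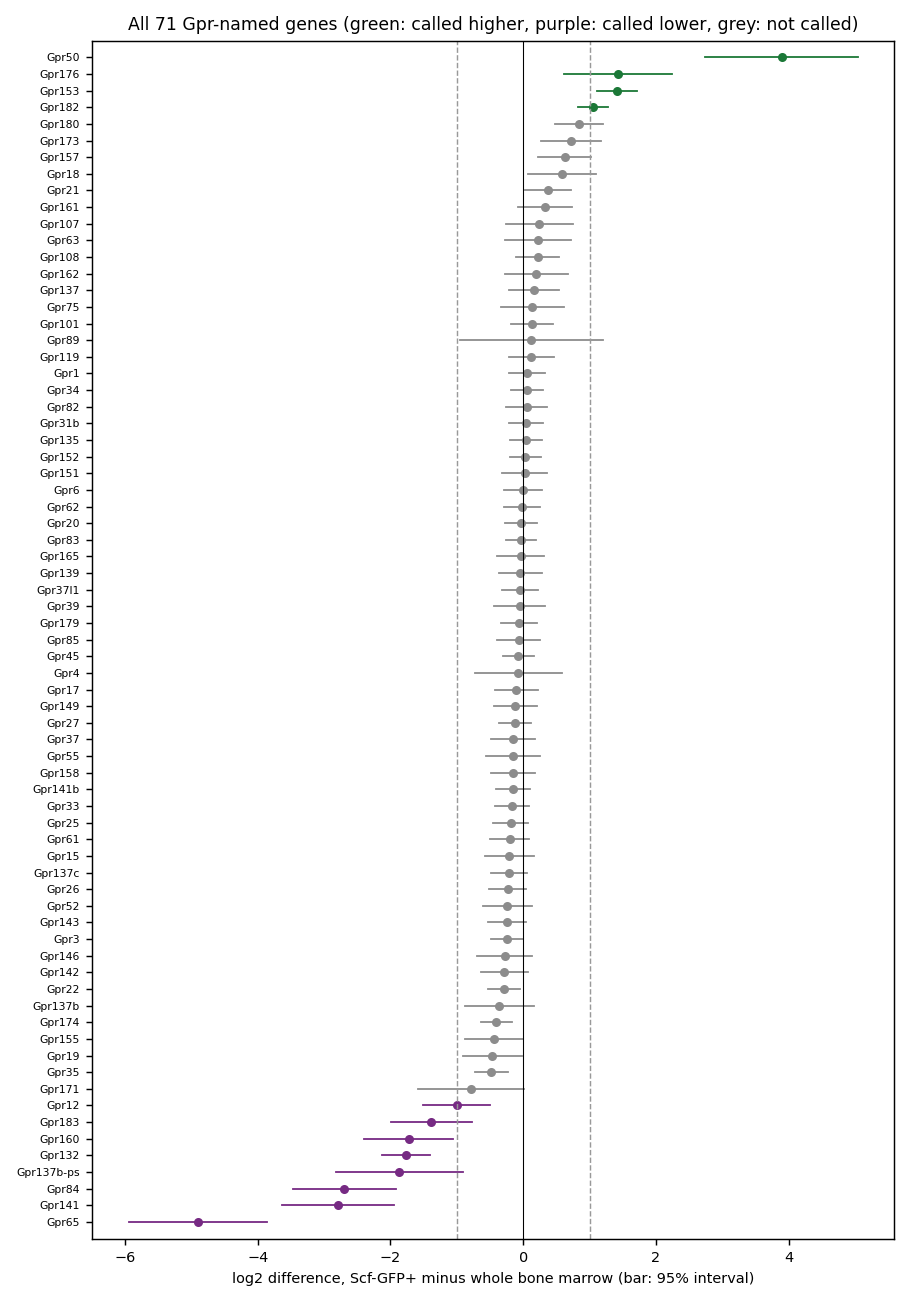
Log2 difference of each of the 71 Gpr-named genes, Scf-GFP+ minus whole bone marrow (horizontal axis), with its 95% interval from limma, ordered by size. Green marks the 4 called higher, purple the 8 called lower and grey the 59 not called, and dashed lines mark 2-fold. Gpr50 at 3.89 and Gpr65 at -4.90 stand at the ends, and most of the grey intervals lie between the dashed lines.

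The stretches upstream of the transcription start are shown for the called genes that kept their call under every alternative in which they were tested, since these carry the result. These were 8 genes, of which 7 had an entry in the RefSeq promoter table of build GRCm38.p6 and Gpr182 did not. The windows are the 250 bases before the start, at chrX:71663417-71663666 on the plus strand for Gpr50, chr4:152273862-152274111 on the plus strand for Gpr153, chr12:98268385-98268634 on the plus strand for Gpr65, chr13:19824258-19824507 on the minus strand for Gpr141, chr15:103310439-103310688 on the minus strand for Gpr84, chr12:112860917-112861166 on the minus strand for Gpr132 and chr3:30855700-30855949 on the plus strand for Gpr160. For Gpr153, which has more than 1 start in the table, the first listed is shown. Each is written 5′ to 3′ along the gene, and capitals mark letters of the 5 motifs named in the next paragraph.
Gpr50: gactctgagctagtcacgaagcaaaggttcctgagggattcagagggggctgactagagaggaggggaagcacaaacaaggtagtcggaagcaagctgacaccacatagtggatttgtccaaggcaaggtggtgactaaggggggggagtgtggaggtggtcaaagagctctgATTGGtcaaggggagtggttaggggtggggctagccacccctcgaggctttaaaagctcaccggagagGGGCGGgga
Gpr153: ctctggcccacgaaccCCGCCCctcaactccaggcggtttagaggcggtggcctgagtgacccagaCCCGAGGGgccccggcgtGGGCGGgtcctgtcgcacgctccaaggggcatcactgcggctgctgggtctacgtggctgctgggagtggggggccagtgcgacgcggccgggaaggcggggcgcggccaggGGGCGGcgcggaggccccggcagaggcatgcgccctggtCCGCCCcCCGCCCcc
Gpr65: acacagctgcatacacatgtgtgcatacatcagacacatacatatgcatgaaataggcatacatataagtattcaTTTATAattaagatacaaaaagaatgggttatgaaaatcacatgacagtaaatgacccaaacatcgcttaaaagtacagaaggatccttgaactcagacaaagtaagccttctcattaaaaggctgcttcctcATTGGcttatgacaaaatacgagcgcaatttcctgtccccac
Gpr141: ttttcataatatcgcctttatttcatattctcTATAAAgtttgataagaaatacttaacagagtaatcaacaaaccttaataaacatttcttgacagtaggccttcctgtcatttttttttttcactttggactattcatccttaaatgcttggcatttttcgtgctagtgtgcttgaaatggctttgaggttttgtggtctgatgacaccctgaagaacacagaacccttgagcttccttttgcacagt
Gpr84: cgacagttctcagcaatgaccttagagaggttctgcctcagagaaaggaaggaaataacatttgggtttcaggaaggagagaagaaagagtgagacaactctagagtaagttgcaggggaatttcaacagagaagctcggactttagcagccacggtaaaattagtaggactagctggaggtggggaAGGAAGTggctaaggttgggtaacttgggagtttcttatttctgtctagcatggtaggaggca
Gpr132: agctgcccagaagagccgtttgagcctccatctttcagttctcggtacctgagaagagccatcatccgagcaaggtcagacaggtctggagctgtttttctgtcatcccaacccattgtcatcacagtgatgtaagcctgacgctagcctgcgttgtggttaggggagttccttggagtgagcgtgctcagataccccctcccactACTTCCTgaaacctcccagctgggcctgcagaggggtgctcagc
Gpr160: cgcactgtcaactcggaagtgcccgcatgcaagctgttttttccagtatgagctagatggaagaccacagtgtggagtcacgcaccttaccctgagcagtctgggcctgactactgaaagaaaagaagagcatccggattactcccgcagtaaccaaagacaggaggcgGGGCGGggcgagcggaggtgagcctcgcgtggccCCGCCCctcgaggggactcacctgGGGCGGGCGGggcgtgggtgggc

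The 5 motifs searched on both strands were AGGAAGT, the core recognised by many ETS factors, CCCNNGGG, the paired half-sites of early B cell factors, the GC box GGGCGG, the CCAAT box and TATAAA. None of the 5 contains another, and CCCNNGGG reads the same on both strands. Gpr50 held a GC box close to the start and a CCAAT box. Gpr65 also held a CCAAT box, nearer to its start, and both Gpr65 and Gpr141 held TATAAA letters far from the start. Gpr153 held 5 GC boxes and 1 CCCNNGGG, and Gpr160 held 4 GC boxes, the last 2 of them overlapping. AGGAAGT letters began at position -44 in Gpr132 and -63 in Gpr84, counted back from the start. Over the 53 members with a window, AGGAAGT was present in 5 (9.43%), against 7.80% of the windows of all 27025 genes in the table, 1 window a gene, and CCCNNGGG in 4 (7.55%), against 11.7%. The GC box was present in 34.0% of the members' windows and 32.9% of all, CCAAT in 43.4% and 34.5%, and TATAAA in 11.3% and 13.0%. A match of letters describes the window and is not a site of binding.

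Among the genes called higher, Gpr50 differed most. Gpr50 encodes a receptor related to the melatonin receptors that does not bind melatonin itself. Its log2 signal was 7.48, 8.66 and 9.47 on the 3 Scf-GFP+ arrays, against 4.99, 4.55 and 4.38 on the 3 whole marrow arrays. The groups did not overlap, the whole marrow values all lay below the lowest first quartile of the arrays (5.19), and the Scf-GFP+ arrays spread over a wider range than the whole marrow arrays. The difference was 3.89 ± 0.48 (SE, n = 3 arrays per group) with a limma adjusted p of 0.00131. No fold is given for it, since the whole marrow signal was not shown to be above background. The lowest of the Scf-GFP+ values came from replicate 1, the Scf-GFP+ array with the highest neutrophil markers. Without that array the difference was 4.42 (limma adjusted p = 0.000281). Without Scf-GFP+ replicate 3, the highest, it was 3.43 (limma adjusted p = 0.00191). Of the 71 genes, 9 lie on the X chromosome, Gpr50 among them. Of these 9, Gpr50 was the 1 called, beside 16.9% of all genes called either way. With a term for the arrays of high Xist, which leaves Scf-GFP+ replicate 3 set against whole marrow, its difference was 4.83 (limma adjusted p = 0.00180), and over all alternatives the adjusted p lay between 0.000281 and 0.00842. The part of neutrophil transcripts or of sex in the spread of Gpr50 was not tested.

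Gpr153, an orphan receptor, measured 7.95, 7.64 and 7.74 in Scf-GFP+ cells, against 6.48, 6.35 and 6.26 in whole marrow. The arrays of each group lay close together, and the difference of 1.41 ± 0.13 (SE, n = 3 per group; 2.66-fold) had a limma adjusted p of 0.000294. The RefSeq span of Gpr153 overlaps that of Hes3, which differed by -0.26.

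Gpr176, an orphan receptor known from the brain's circadian pacemaker, measured 8.15, 6.69 and 7.33 in Scf-GFP+ cells, against 6.00, 5.89 and 6.01 in whole marrow. All Scf-GFP+ arrays were higher, but they differed among themselves (SD 0.73) far more than the whole marrow arrays did (SD 0.07). The difference was 1.43 ± 0.34 (SE) with a limma adjusted p of 0.0224. Gpr176 was not called when Scf-GFP+ replicate 3 was left out (1.45, limma adjusted p = 0.0536), nor when any 1 of the whole marrow arrays was (1.39 to 1.45, limma adjusted p between 0.0646 and 0.0683). It was also not called with the term for high Xist (1.37, limma adjusted p = 0.154), and the adjusted p lay between 0.00516 and 0.154 over all alternatives.

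Gpr182, an atypical receptor that binds chemokines including Cxcl12 and is known from endothelial cells, measured 6.65, 6.70 and 6.62 in Scf-GFP+ cells, against 5.65, 5.59 and 5.56 in whole marrow. Both groups were tight, and the difference of 1.06 ± 0.09 (SE, n = 3 per group; 2.08-fold, limma adjusted p = 0.000300) lay just above the 2-fold bound. Over 11 endothelial markers the mean was 7.03, 6.79 and 6.44 in Scf-GFP+ cells, against 6.24, 6.29 and 6.20 in whole marrow. Of the 11, 2 were called higher, Emcn (2.20) and Cdh5 (1.40). The call of Cdh5 was lost when any 1 array other than Scf-GFP+ replicate 3 was left out (limma adjusted p up to 0.110). With the term for high Xist, which leaves Scf-GFP+ replicate 3 set against whole marrow, the Cdh5 difference was 0.55. The other 9 were not called and lay between -0.17 (Plvap) and 0.61 (Tek), with Plvap, Robo4 and Tie1 below 0, and the part of endothelial cells in the Gpr182 signal was not tested.

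**Figure D2:**
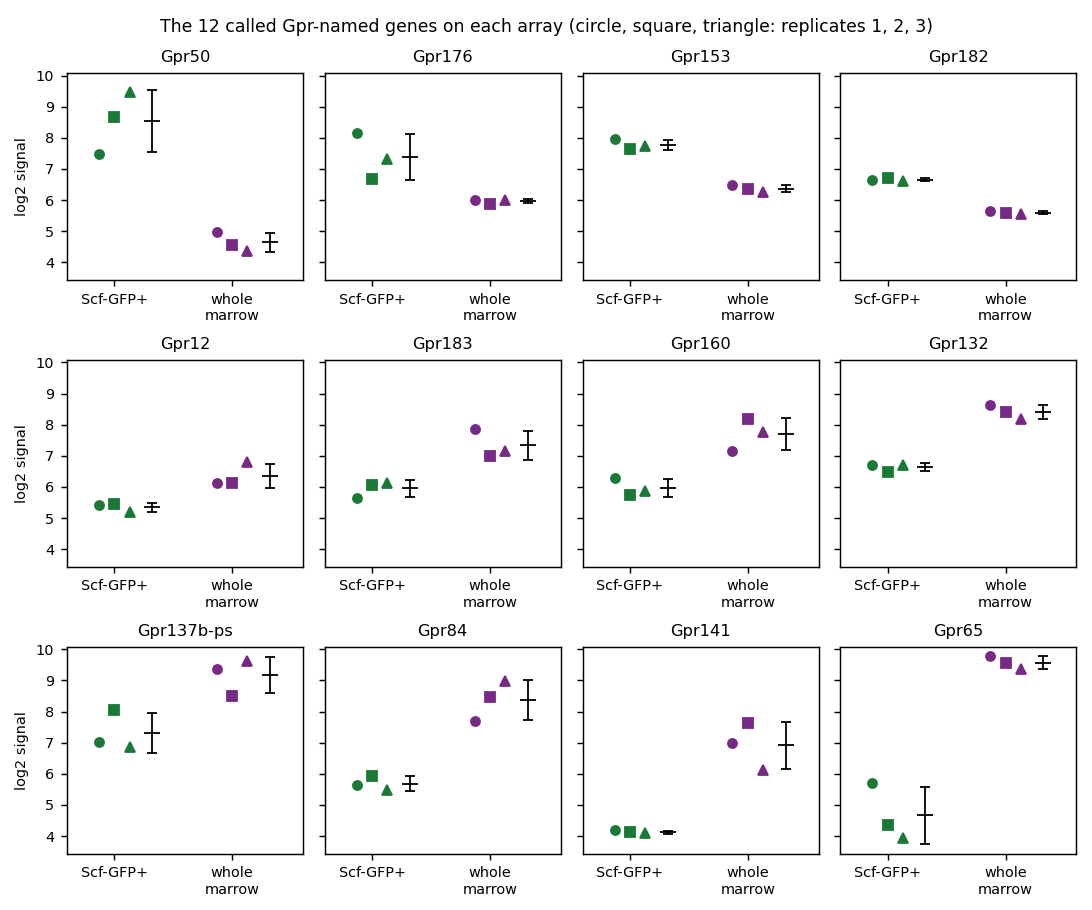
Log2 signal (vertical axis) of the 12 called genes on every array, with Scf-GFP+ arrays in green on the left and whole bone marrow arrays in purple on the right of each panel, and the mean with SD (n = 3) in black beside each group. The groups do not overlap in any panel, and the spread within a group is widest for Gpr50 and Gpr65 in Scf-GFP+ cells.

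Of 3 proton-sensing receptors, 2 (66.7%) were called lower, beside 7.89% of all genes, in a list of only 3. Gpr65, which raises cyclic AMP in leukocytes when the surroundings turn acid, had the largest difference of the 71 genes. It measured 5.70, 4.35 and 3.94 in Scf-GFP+ cells, against 9.77, 9.56 and 9.36 in whole marrow. All Scf-GFP+ values lay far below those of whole marrow, and the highest of them came from replicate 1. The difference was -4.90 ± 0.44 (SE, n = 3 per group) with a limma adjusted p of 0.000289. No fold is given for it, since the Scf-GFP+ values of replicates 2 and 3 lay below the arrays' first quartile and were not shown to be above background. Without Scf-GFP+ replicate 1, where neutrophil markers averaged 9.39, it was -5.42 (limma adjusted p = 3.42e-05), and without replicate 3 it was -4.54 (limma adjusted p = 0.000810). With the term for high Xist it was -5.63 (limma adjusted p = 0.00129), and the adjusted p lay between 3.42e-05 and 0.00234 over all alternatives. Whether neutrophil RNA accounts for the Gpr65 signal on that array was not tested.

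Gpr132, a receptor of leukocytes that responds to acid and to oxidised fatty acids, measured 6.71, 6.48 and 6.72 in Scf-GFP+ cells, against 8.62, 8.41 and 8.17 in whole marrow. Replicate 1 did not stand out among the Scf-GFP+ arrays here. The difference was -1.77 ± 0.15 (SE; limma adjusted p = 0.000227). Gpr4, the acid sensor known from endothelial cells, averaged 5.99 ± 0.26 on the Scf-GFP+ arrays and 6.07 ± 0.52 on the whole marrow arrays (SD, n = 3 each). It differed by -0.07 with a 95% interval of -0.73 to 0.59 and was not called (limma adjusted p = 0.869).

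Of 9 sensors of lipids and metabolites, 2 (22.2%) were called lower, beside 7.89% of all genes. Gpr84, which binds medium-chain fatty acids and is known from neutrophils and macrophages, measured 5.64, 5.94 and 5.48 in Scf-GFP+ cells, against 7.69, 8.47 and 8.98 in whole marrow. It differed by -2.69 ± 0.32 (SE; 6.47-fold lower, limma adjusted p = 0.00116). Its value on replicate 1, the Scf-GFP+ array with the highest neutrophil markers, lay between those of Scf-GFP+ replicates 2 and 3. Monocyte and macrophage markers, 12 in number, averaged 6.00 to 6.15 on the Scf-GFP+ arrays and 7.58 to 7.63 on the whole marrow arrays, with 6 of the 12 called lower. Gpr183, the oxysterol receptor that positions B cells and dendritic cells, measured 5.65, 6.07 and 6.13 in Scf-GFP+ cells, against 7.86, 6.99 and 7.16 in whole marrow. It differed by -1.38 ± 0.25 (SE; limma adjusted p = 0.00757), and was not called with the term for high Xist (-1.20, limma adjusted p = 0.0897; 0.00466 to 0.0897 over all alternatives). The 10 B cell markers averaged 5.45 to 5.73 on the Scf-GFP+ arrays and 8.88 to 9.40 on the whole marrow arrays, and 9 of them were called lower. The part of these cell types in the lower receptor signals was not tested.

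The other 7 lipid and metabolite sensors were not called. Gpr35, a receptor for kynurenate, differed by -0.48 (limma adjusted p = 0.0150) and Gpr174, a lysophosphatidylserine receptor, by -0.40 (limma adjusted p = 0.0235), both under the 2-fold bound. Each had its 3 Scf-GFP+ arrays below its 3 whole marrow arrays, but both group means of Gpr174 lay below the arrays' first quartile. Gpr18, a receptor of lymphocytes, measured 8.19, 8.51 and 8.09 in Scf-GFP+ cells, against 7.73, 7.29 and 8.01 in whole marrow. The groups of Gpr18 did not overlap, but its difference of 0.59 ± 0.21 (SE) did not pass the test (limma adjusted p = 0.0906). Gpr31b averaged 7.10 ± 0.11 on the Scf-GFP+ arrays and 7.05 ± 0.06 on the whole marrow arrays (SD, n = 3 each). Gpr55, a receptor for lysophosphatidylinositol, differed by -0.15, and Gpr119, a receptor for oleoylethanolamide, by 0.12.

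Of 3 receptors that keep cyclic AMP high without a known ligand, 1 (33.3%), Gpr12, was called lower, beside 7.89% of all genes. Gpr12 measured 5.43, 5.44 and 5.18 in Scf-GFP+ cells, against 6.13, 6.12 and 6.81 in whole marrow. The whole marrow value of replicate 3 stood above the other 2. The difference of -1.003 ± 0.209 (SE; limma adjusted p = 0.0130) lay at the 2-fold bound, and leaving out replicate 3 of either group put it inside the bound (-0.92 without the Scf-GFP+ array, limma adjusted p = 0.0418, and -0.77 without the whole marrow array, limma adjusted p = 0.0126), so that Gpr12 was not called there. The adjusted p of Gpr12 lay between 0.00747 and 0.0539 over all alternatives. Gpr3, known for holding mouse oocytes in meiotic arrest, differed by -0.25 (limma adjusted p = 0.123) and its relative Gpr6 by less than a hundredth of a unit (95% interval -0.29 to 0.28), and neither was called.

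The largest set was 44 other receptors of the rhodopsin class. Of these, 4 (9.09%) were called higher, those described above, and 2 (4.55%) lower, beside 9.01% and 7.89% of all genes. Gpr141, an orphan receptor, measured 4.18, 4.12 and 4.09 in Scf-GFP+ cells, against 6.98, 7.65 and 6.13 in whole marrow. The 3 Scf-GFP+ values lay within a narrow range below the arrays' first quartile, and the whole marrow arrays spread widely. The difference was -2.79 ± 0.35 (SE; limma adjusted p = 0.00151). Gpr160, another orphan, measured 6.30, 5.75 and 5.87 in Scf-GFP+ cells, against 7.15, 8.19 and 7.75 in whole marrow. The groups of Gpr160 did not overlap, and it differed by -1.72 ± 0.28 (SE; limma adjusted p = 0.00461).

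Of this set 38 were not called. Gpr171, a receptor with a high signal on all arrays, measured 9.13, 9.53 and 8.73 in Scf-GFP+ cells, against 10.46, 10.04 and 9.28 in whole marrow. Its groups overlapped and the difference of -0.79 ± 0.33 (SE) did not pass (limma adjusted p = 0.135), although it was called lower when whole marrow replicate 3 was left out (-1.11, limma adjusted p = 0.0398). Gpr146 differed by -0.28 and Gpr27 by -0.12. The orphans Gpr173 and Gpr157 lay above whole marrow on all Scf-GFP+ arrays without reaching 2-fold. Gpr173 measured 5.56, 5.61 and 6.13 in Scf-GFP+ cells, against 4.83, 5.16 and 5.15 in whole marrow (difference 0.72, limma adjusted p = 0.0314), and Gpr157 differed by 0.62 (limma adjusted p = 0.0348). Gpr173, which is X-linked, was called higher with the term for high Xist (1.09, limma adjusted p = 0.0142), where Scf-GFP+ replicate 3 stands alone for its group. Gpr161, which restrains Hedgehog signalling in the primary cilium, differed by 0.33 (limma adjusted p = 0.213). The remaining genes of this set that were not called lay between -0.46 (Gpr19) and 0.37 (Gpr21).

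Of 10 proteins outside the classical receptor classes, 1 (10.0%) was called lower, beside 7.89% of all genes. Gpr137b-ps measured 7.02, 8.04 and 6.87 in Scf-GFP+ cells, against 9.38, 8.51 and 9.63 in whole marrow. Replicate 2 came nearest to the other group in both, and the difference was -1.87 ± 0.40 (SE; limma adjusted p = 0.0142). It was not called when whole marrow replicate 1 (-1.76, limma adjusted p = 0.0532) or 3 (-1.64, limma adjusted p = 0.0526) was left out, and the adjusted p lay between 0.00693 and 0.0532 over all alternatives. Its parent gene Gpr137b, which encodes a lysosomal membrane protein, differed by -0.36 ± 0.22 and was not called (limma adjusted p = 0.281). Whether the probes of one also detect the other was not tested, so the copy behind the lower signal is uncertain. Gpr180 came closest to the bound from below among genes not called, at 8.31, 8.23 and 7.93 in Scf-GFP+ cells, against 7.20, 7.53 and 7.23 in whole marrow (difference 0.83 ± 0.15 SE, limma adjusted p = 0.00737). The Golgi proteins Gpr107 and Gpr108 differed by 0.24 and 0.22 and were not called, nor was Gpr155, a lysosomal cholesterol sensor, at -0.44. Gpr89, which encodes a Golgi anion channel, had overlapping groups and a wide interval, -0.96 to 1.20, with whole marrow replicate 3 at 8.19 above the other 2 at 6.57 and 6.71. The class C receptors Gpr158 and Gpr179 differed by -0.15 and -0.06.

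For most of the genes not called, the arrays put a bound on the difference in signal. Of the 59, 53 (89.8%) had a 95% interval that lay wholly within 2-fold in either direction, against 80.7% of all genes not called. The other 6 were Gpr180, Gpr173, Gpr157, Gpr18, Gpr89 and Gpr171. Of the 71 genes, 11 had both group means below the lowest first quartile of the arrays, 15.5% against 16.8% of all genes, and for these a small difference says little. All 11 are counted among the 53, and their intervals bound a signal that was not shown to be above background. Gpr174, Gpr141b, Gpr34, Gpr82 and Gpr158 are among these 11 genes. The median SE of a difference was 0.142 for the 71 genes and 0.151 for all genes.

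In the RefSeq order of protein-coding genes, 3 pairs of the 71 stood next to each other. On chromosome 14, Gpr183 was called lower (-1.38) while its neighbour Gpr18 differed by 0.59, and both lie within the span of Ubac2, which differed by -0.02. On chromosome 13, Gpr141 was called lower (-2.79) while its neighbour Gpr141b differed by -0.16 (limma adjusted p = 0.347). Both group means of Gpr141b, 4.33 and 4.48, lay below the arrays' first quartile, so its small difference says little. The third pair was the lysophosphatidylserine receptor Gpr34 and Gpr82 on the X chromosome, which differed by 0.06 and 0.05 and were both not called. Their group means also lay below that quartile in both groups. The difference within a pair was not tested. Altogether 24 of the 71 genes overlap the span of another protein-coding gene, and their signals are uncertain to that extent. Of the 24, 2 were called (Gpr153 and Gpr183), beside 16.9% of all genes called either way.

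**Figure D3:**
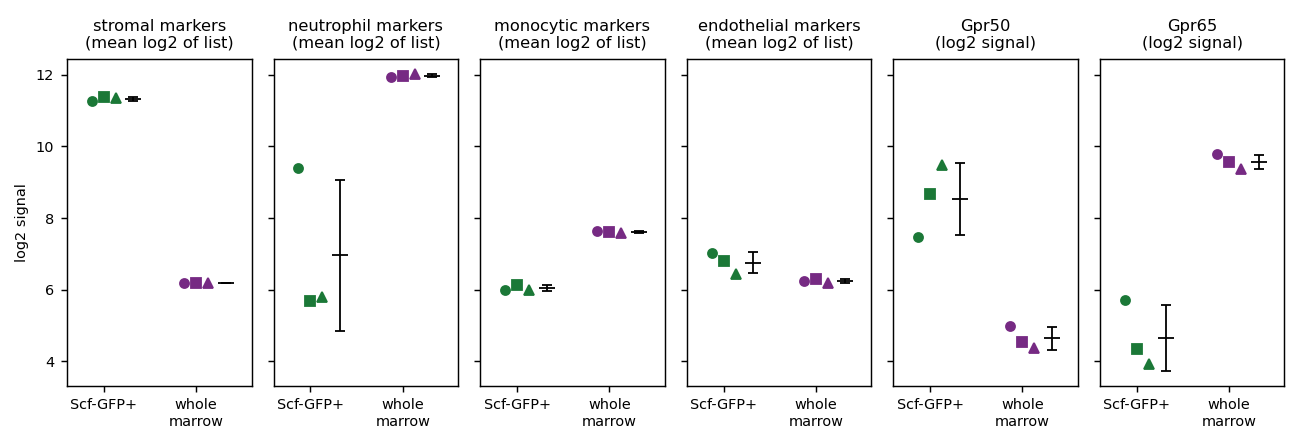
Mean log2 signal of 4 lists of cell type markers and log2 signal of Gpr50 and Gpr65 (vertical axis) on each array, with Scf-GFP+ in green on the left, whole bone marrow in purple on the right, circle, square and triangle for replicates 1, 2 and 3, and the mean with SD (n = 3) in black. On Scf-GFP+ replicate 1 the neutrophil list stands at 9.39, Gpr65 at 5.70 above the other Scf-GFP+ arrays and Gpr50 at 7.48 below them.

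The adhesion receptors, many of them once named Gpr as well, were measured under their present names. Of 28, 5 (17.9%) were called higher and 3 (10.7%) lower, beside 9.01% and 7.89% of all genes. This leaves aside the pseudogene Adgrd2-ps, which was not in the list. Adgrf5 (once Gpr116), known for its role in lung surfactant control, differed by 5.36 ± 0.17 (SE). The latrophilins Adgrl2 and Adgrl1 differed by 4.70 and 1.69, Adgra2 (once Gpr124), a co-receptor for Wnt signals in brain vessels, by 1.83, and Adgra3 by 1.16. Adgra3 was not called when Scf-GFP+ replicate 2 was left out (0.96). In the other direction, Adgre4 (-0.97) and Adgrg7 (-0.80), not called with all arrays, were called lower when certain single arrays were left out. Adgre1, the macrophage antigen F4/80, Adgrg3 (once Gpr97), known from granulocytes, and Adgrg1 (once Gpr56) were called lower at -2.47, -2.11 and -1.23. The 8 adjusted p values lay between 4.07e-06 and 0.00654 in limma.

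The genes that carry or end receptor signals were called in both directions, in short lists. Called higher were 13.3% of alpha subunits, 11.8% of beta and gamma subunits and 20.0% of adenylyl cyclases, beside 9.01% of all genes. For RGS proteins the share was 10.0%, and for receptor kinases and arrestins 11.1%. Each share called higher rests on 1 or 2 genes. Called lower were 0%, 0%, 10.0%, 25.0% and 22.2% of these lists, in that order, beside 7.89% of all genes. Of 15 G protein alpha subunits, 2 were called higher, the inhibitory subunits Gnai1 at 4.25 ± 0.18 and Gnao1 at 3.72 ± 0.19 (SE). Of 17 beta and gamma subunits, Gng11 at 3.62 and Gnb4 at 2.16 were called higher. Of 10 adenylyl cyclases, Adcy2 (4.80) and Adcy4 (2.01) were called higher and Adcy7 (-1.23) lower. Of 20 RGS proteins, 2 were called higher, Rgs5 at 3.59 and Rgs16 at 3.47, and 5 lower, led by Rgs18 at -3.30 and Rgs1 at -2.80. Of 9 receptor kinases and arrestins, Grk4 (2.30) was called higher and Arrb2 (-2.85) and Grk6 (-1.58) lower. Grk4 was not called when whole marrow replicate 1 or 3 was left out (limma adjusted p = 0.0618 and 0.0611), against a limma adjusted p of 0.0182 with all arrays. Calls were also gained when a single array was left out, higher for Gnb5, Rgs4 and Adcy3 and lower for Gng2 and Gna15. With the term for high Xist, neither Grk4 nor Grk6, Adgra3 or Adgrg1 was called. The medians of these lists lay between -0.22 and 0.34, beside -0.08 for all genes.

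**Figure D4:**
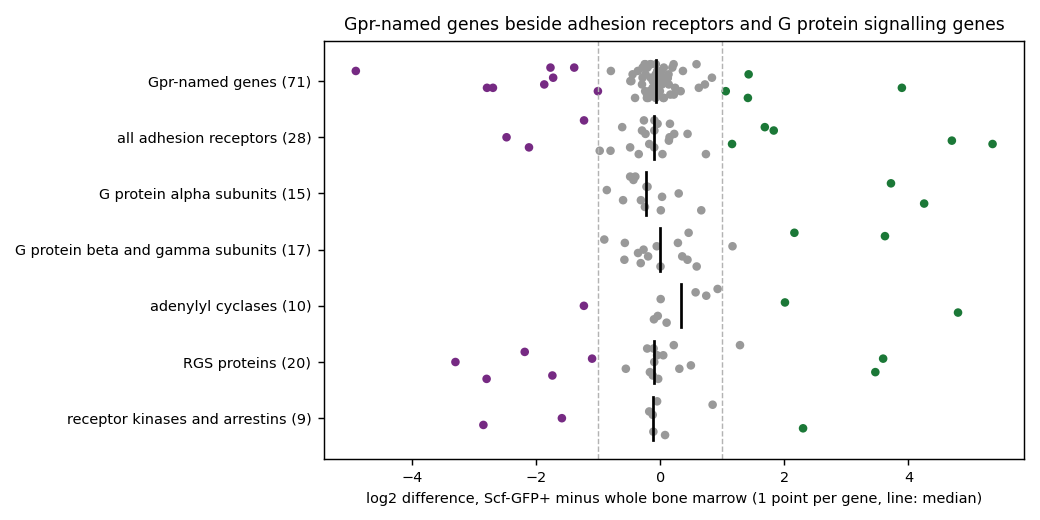
Log2 difference, Scf-GFP+ minus whole bone marrow (horizontal axis), of each Gpr-named gene and of adhesion receptors, G protein subunits, adenylyl cyclases, RGS proteins and receptor kinases with arrestins (rows, number of genes in brackets). Each point is 1 gene, green called higher, purple called lower, grey not called, and the black line is the list's median, which lies between -0.22 and 0.34 in every row.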

How the data were processed

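In all, 6 arrays of RNA from sorted mouse marrow cells were compared, 3 of Scf-GFP+ cells and 3 of whole bone marrow. The deposited table holds log2 values per transcript cluster. RMA, affy and limma are listed in the submitters' processing notes. Their versions were not given in the sources used here, and the values entered the fit unchanged. RMA equalises the arrays' distributions, gives no detection call and loses resolution at both ends, and the small number of arrays limits precision.

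Of 28940 rows, 21789 had 1 gene symbol, 1621 several and 5530 none. Symbols were updated through Entrez identifiers with RefSeq (GRCm38.p6), and 91 rows without a match kept theirs. The highest-mean row stood for each of 999 genes with several rows. Groups were compared with limma 3.58.1 (lmFit, eBayes) in R 4.3.3 without covariates. The fit was run on simulated data of independent normal values, which cannot show how it handles uneven arrays such as Scf-GFP+ replicate 1. Every adjusted p is limma's, Benjamini-Hochberg adjusted over 19938 genes. The groups share replicate numbers, but these are not stated to pair arrays, so no pairing was used. Deviations of same-numbered arrays correlated at -0.06, -0.02 and 0.07, and those of other pairs between -0.09 and 0.11. With so few arrays these values cannot decide whether arrays were paired. Members and lists were chosen with earlier results of these data known. Named genes are every called member, the brightest 3 not called per role and up to 4 called genes per partner list. Gpr173, Gpr157, Gpr174, Gpr161, Gpr34, Gpr82, Gpr137b, Gpr141b, Gpr89, Gpr55, Gpr119, Gpr155, Gpr19, Gpr21, Adgra3, Adgre4, Adgrg7, Gnb5, Rgs4, Adcy3, Gng2, Gna15 and the named endothelial and neutrophil markers were chosen after their values were seen. The alternatives, 15 in number, comprised a replicate block, each array left out, a filter on dim genes, other scalings, prior, row choice and thresholds, and a term for high Xist.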

Additional observations from a re-analysis of the deposited data

How the results depend on the processing

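The count of Gpr-named genes called higher was 4 with all arrays, 3 to 4 without single arrays, and 7 with no fold minimum. The count called lower was 8 with all arrays, 7 to 8 without single arrays and 6 to 10 over all alternatives. Of all genes, 9.01% were called higher and 7.89% lower with all arrays, and 13.8% and 13.2% with no fold minimum. Without single arrays these shares lay between 8.12% and 9.14% higher and between 7.26% and 7.82% lower. Without the dimmest 30% of genes they were 12.5% and 10.8%, and at an adjusted p below 0.01 they were 7.16% and 6.62%. With the replicate number as a replicate block the counts were 4 and 8, the same as without it, and the block changed no other call of a member. Among role lists, the 1 cyclic AMP receptor called lower, Gpr12, became 0 without the dimmest 30% of genes, where it was not tested, and also after quantile normalization, at an adjusted p below 0.01 and with the term for high Xist, and was 0 to 1 without single arrays. The 1 lower call outside the classical classes became 0 at an adjusted p below 0.01 and was 0 to 1 without single arrays, and 1 gene there, Gpr180, was called higher with no fold minimum. The 2 lipid sensors called lower became 4 with no fold minimum and 1 with the term for high Xist. The 2 lower calls among other rhodopsin-class receptors became 1 without the dimmest 30% of genes, since Gpr141 was not tested there either. No sign changed for any of the 12 named differences, and 8 of them (Gpr50, Gpr153, Gpr182, Gpr65, Gpr141, Gpr84, Gpr132 and Gpr160) kept their call wherever they were tested. Signals below the arrays' first quartile limit what can be seen for 11 genes.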
